A study of Mus with 2 samples.

Results

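Fibroblast growth factors (FGFs) and their receptors were followed here across the cell types of the newborn mouse kidney. The members were chosen by gene symbol and number 10 of the 28693 features in the count matrices: the ligands Fgf1, Fgf7, Fgf8, Fgf9, Fgf10 and Fgf20 and the receptors Fgfr1, Fgfr2, Fgfr3 and Fgfr4. All 10 symbols were found, and the rule sets no threshold on a measured value. The kidneys were taken at postnatal day 0 and profiled by droplet single-cell RNA sequencing, which counts unique molecular identifiers (UMIs) from the 3′ ends of transcripts. Both libraries carry the mutant genotype Rbpj c/- ; Foxd1cre/+, in which a Foxd1-driven Cre deletes a conditional allele of Rbpj, the DNA-binding mediator of Notch signalling, in the renal interstitium and the other Rbpj allele is null. The series also names control kidneys of genotype Rbpj c/+ ; Foxd1cre/+, which are not analysed here. What follows sets cell types of mutant kidneys side by side, and measures no effect of the deletion. The labels do not say whether the 2 libraries came from separate animals, so p-values measure only the spread between these libraries, which may be technical.

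FGFs are secreted proteins that bind heparan sulfate and activate receptor tyrosine kinases at the surface of neighbouring cells. In the developing kidney, FGF signals maintain the nephron progenitors of the cap mesenchyme, support the survival of the first nephron structures and promote branching of the ureteric bud. Signalling through the RAS and MAP kinase route induces transcription factors of the Etv family and feedback inhibitors of the Sprouty, Spred and Dusp families, so the transcripts of those genes are often followed beside the ligands and receptors.

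The libraries held 163405630 UMIs (replicate 1) and 135436576 UMIs (replicate 2). After removal of barcodes under 2000 UMIs, above 10% mitochondrial UMIs or with the highest doublet scores, 5910 and 4937 cells remained, with median depths of 11761 and 12203 UMIs. Only 6 barcodes were shared between the libraries. Each cell was assigned by fixed marker lists to 1 of 14 classes, and 9425 of 10847 cells (86.9%) received one. Class names below mean that marker gate and nothing more: 832 cells without a class failed only the required lead over the next class, and 370 cells with a class lay within 0.1 of that limit. The progenitor-like gate held 784 and 858 cells, the early nephron-like gate 613 and 539, the stroma-like gate 908 and 875, and the distal tubule-like gate only 47 and 24. The 10 genes with the highest fold in the collecting duct-like gate included the urothelial genes Upk3a, Psca and Sprr2f, and 63 of its 224 cells lay in unsupervised clusters named loop of Henle. So did 46 of the 71 distal tubule-like cells, none of which lay in a cluster named for the distal tubule, and 102 of the 169 ureteric tip-like cells lay in a cluster of that name. Of the 298 mural-like cells, 156 lay in clusters named stroma. No member is a marker of any gate, although Fgf8 was among the 10 leading genes of the early nephron-like gate. Rbpj itself was counted at 28.5 and 24.8 CPM (counts per 1000000 UMIs of the class in that library) in stroma-like cells and at 61.5 and 59.3 CPM in progenitor-like cells. The 3′ tag can lie outside the deleted part, so this level does not test the labels. Foxd1, the gene that drives the Cre, stood at 88.1 and 87.1 CPM in stroma-like cells, 247 and 222 CPM in podocyte-like cells and 29.0 and 30.3 CPM in progenitor-like cells, and Cre activity itself was not measured.

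Among the ligands, Fgf20 was the one held most tightly by a single class. Fgf20 (ENSMUSG00000031603, chr8:40279166-40286953, mm10), a ligand of the nephron progenitor niche, stood at 12.9 and 11.1 CPM in progenitor-like cells, from 272 and 213 UMIs. That class held 85.8% and 89.1% of all Fgf20 UMIs in kept cells, those without a class included. Early nephron-like cells, the step that follows the progenitor, gave 0.197 and 0.586 CPM. No Fgf20 UMI was counted in podocyte-, proximal tubule-, collecting duct-, stroma- or mural-like cells. A UMI of Fgf20 was found in 20.8% and 17.2% of progenitor-like cells, against 0.205% and 0% of erythroid-like cells, which should lack the gene. Median depths were 15292 and 14300.5 UMIs in the first class and 4485.5 and 4558.5 in the second, and with every cell thinned to 4600 UMIs the shares were 5.81% and 3.87% against 0% and 0%. The progenitor-like level was above every other class in both libraries.

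Fgf1 (ENSMUSG00000036585), a ligand that can bind all of the FGF receptors, was also highest in progenitor-like cells, at 42.6 CPM in each library. Endothelial-like cells followed at 21.8 and 13.4 CPM and proximal tubule-like cells at 10.2 and 13.2 CPM, and the ranges of these 3 classes did not overlap. An Fgf1 UMI was found in 82 of 731 and 53 of 488 endothelial-like cells, and in 357 of 784 and 365 of 858 progenitor-like cells, which differ from them in depth. From loop of Henle-like to stroma-like cells the neighbouring classes overlapped, between 1.78 and 6.16 CPM. Early nephron-like cells gave 1.53 and 1.11 CPM. Immune-like cells gave no UMI, which allows up to 1.55 and 2.28 CPM at a floor of 3 counts per library.

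Fgf10 (ENSMUSG00000021732, chr13:118714699-118792573), a ligand of the IIIb splice form of Fgfr2, was highest in progenitor-like cells at 20.5 and 19.9 CPM. Proximal tubule-like cells gave 8.53 and 17.3 CPM and early nephron-like cells 8.24 and 8.46 CPM. The progenitor-like range lay above the others. The proximal tubule-like value was close to the early nephron-like ones in replicate 1 and to the progenitor-like ones in replicate 2. In every other class but the distal tubule-like and immune-like gates, which rest on 3 and 5 UMIs, the level stayed at or below 1.86 CPM.

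Fgf8 (ENSMUSG00000025219, chr19:45736491-45742941), the ligand required by early nephrons, showed the reverse order of these classes. Early nephron-like cells gave 79.5 and 109 CPM, and progenitor-like cells 28.3 and 23.0 CPM. The third class, ureteric tip-like cells, gave 8.24 and 2.64 CPM and overlapped the distal tubule-, loop of Henle- and collecting duct-like classes. Fgf8 was carried by few cells: 26.9% and 32.8% of early nephron-like cells had a UMI, yet the tenth of cells with most UMIs held 87.7% and 80% of the total, and single cells reached 186 and 92 UMIs. Erythroid-like cells had an Fgf8 UMI in 0.615% and 0.549%. Early nephron-like cells with both a Six2 UMI, a progenitor gene, and an Lhx1 UMI, a renal vesicle gene, gave 119 and 159 CPM from 95 and 77 cells. Those with Lhx1 and no Six2 UMI gave 62.8 and 94.9 CPM from 483 and 436 cells. The first value was the higher in each library. The cells with both UMIs were also deeper, with medians of 36925 and 31444 UMIs against 18065 and 19261, and the part of depth was not tested. This split was made after the levels had been seen.

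Fgf9 (ENSMUSG00000021974, chr14:58070671-58112854), a ligand that acts on mesenchyme and on progenitors, had a different distribution, led by the distal and ureteric epithelia. Loop of Henle-like cells gave 53.4 and 51.4 CPM, the highest of any class. Ureteric tip-like cells gave 32.2 and 34.3 CPM, collecting duct-like cells 28.7 and 36.4 CPM and distal tubule-like cells 34.9 and 15.9 CPM, and these 3 overlapped. Early nephron-like cells (8.34 and 9.18 CPM) and progenitor-like cells (8.42 and 4.87 CPM) came next and overlapped each other. Stroma-like cells gave 0.437 and 0.233 CPM, from 4 and 2 UMIs. With progenitor-like cells thinned to 11900 UMIs, 3 of 622 and 5 of 657 had UMIs of both Fgf9 and Fgf20. Fgf20 was found in 6.82% and 11.9% of the cells with Fgf9 and in 13.0% and 11.7% of those without, on so few shared cells that no difference is read from them.

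Fgf7 (ENSMUSG00000027208, chr2:126034658-126091185), a mesenchymal ligand of the IIIb form of Fgfr2, was the only one of the 6 ligands highest outside the epithelial and progenitor classes. Mural-like cells gave 12.4 and 9.0 CPM, from 28 and 14 UMIs, and stroma-like cells 4.81 and 5.23 CPM, from 44 and 45 UMIs. Progenitor-like cells gave 0.523 and 0.576 CPM. No UMI was counted in ureteric tip-, collecting duct-, endothelial- or erythroid-like cells. The mural-like level exceeded the stroma-like one in both libraries, but this difference was not called in the test given below. Within stroma-like cells, a small adventitial gate described below stood at 62.5 and 87.6 CPM, above the mural-like level.

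**Figure D1:**
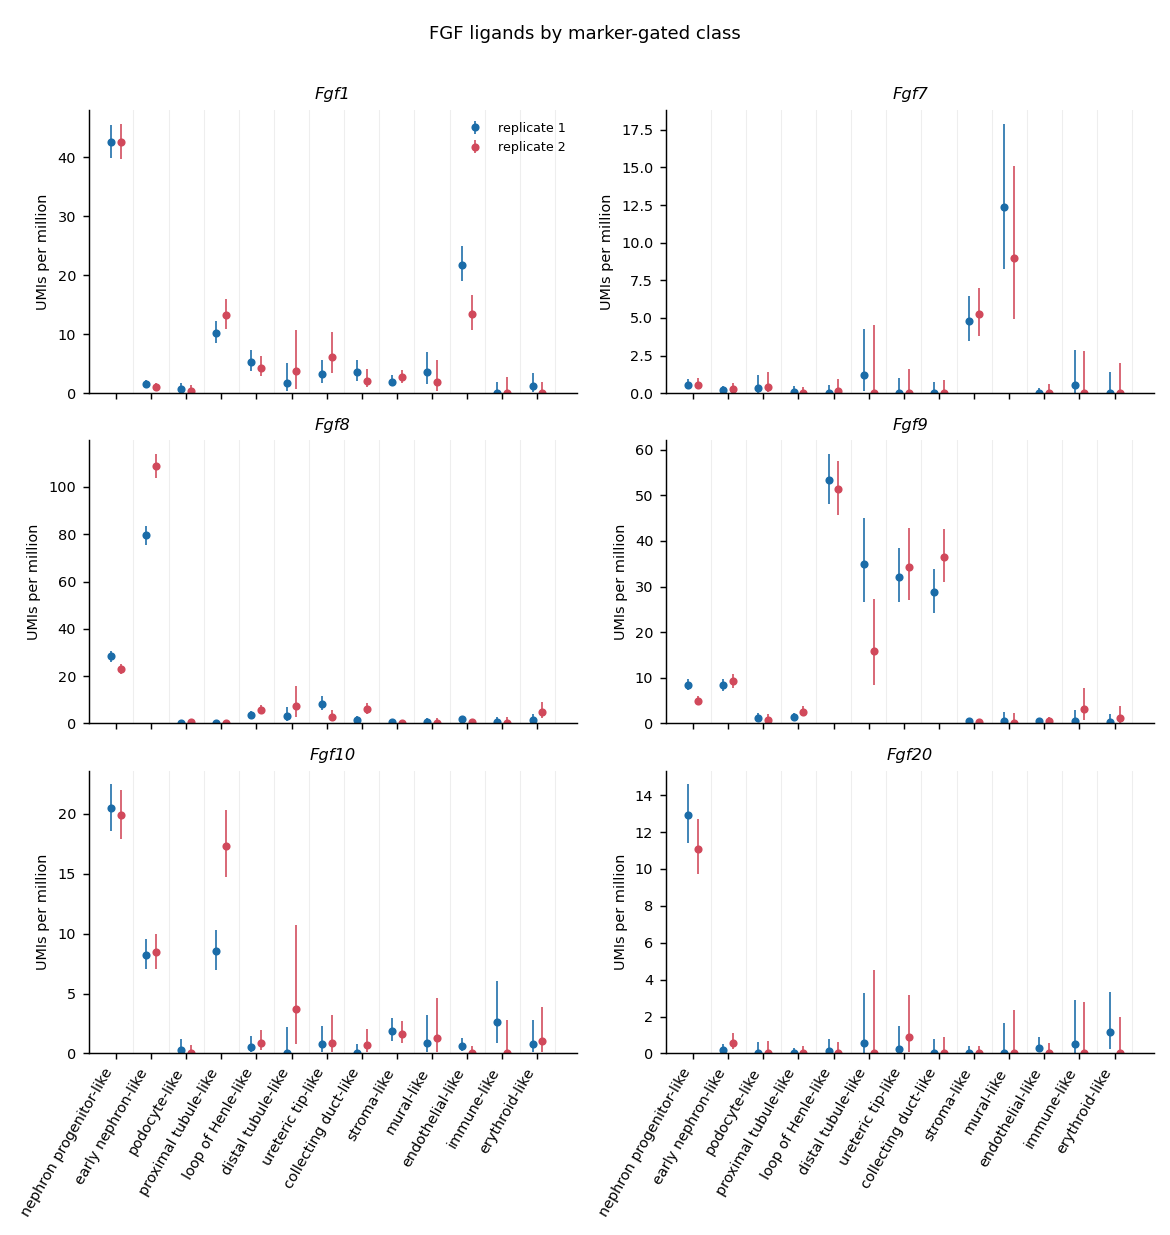
CPM (linear axes from 0) of the 6 ligands in each class, 1 point per library with its 95% exact Poisson interval, which covers counting error only. Fgf20 stood at 12.9 and 11.1 CPM in progenitor-like cells and at 1.15 CPM or less elsewhere, Fgf8 was highest in early nephron-like cells, Fgf9 in loop of Henle-like cells and Fgf7 in mural-like cells.

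Fgfr1 (ENSMUSG00000031565, chr8:25518759-25575718), the receptor of mesenchyme and progenitors, had its highest levels in progenitor-like cells. Progenitor-like cells gave 240 and 229 CPM, early nephron-like cells 206 and 218, podocyte-like cells 176 and 193 and stroma-like cells 135 and 120, and none of these ranges overlapped. In the tests below, however, early nephron-like cells differed from progenitor-like cells only under some settings. Podocyte-like against early nephron-like cells was not called. Mural-, loop of Henle-, distal tubule-, ureteric tip- and collecting duct-like cells lay between 49.7 and 69.4 CPM. Endothelial-like cells gave 44.4 and 44.9 CPM and proximal tubule-like cells 29.6 and 28.0. A UMI was found in 89.2% and 90.2% of progenitor-like cells against 3.07% and 3.85% of erythroid-like cells, and with cells thinned to 4600 UMIs in 55.7% and 56.9% against 1.67% and 1.69%.

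Fgfr2 (ENSMUSG00000030849, chr7:130162451-130266808), the receptor through which Fgf7 and Fgf10 act on epithelium, was led by the ureteric classes. Collecting duct-like cells gave 174 and 140 CPM and ureteric tip-like cells 98.9 and 88.5 CPM, without overlap. Mural-like cells gave 24.7 and 71.4 CPM, the widest gap between the libraries of any class with 50 or more Fgfr2 UMIs. From early nephron-like to proximal tubule-like cells the levels overlapped, between 30.6 and 45.3 CPM. Endothelial-like cells, at 2.58 and 2.84 CPM, overlapped erythroid-like cells at 4.21 and 1.61 CPM. The 3′ counts do not tell the IIIb and IIIc splice forms of a receptor apart.

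Fgfr3 and Fgfr4 were both highest in proximal tubule-like cells. Fgfr3 (ENSMUSG00000054252, chr5:33721724-33737068), known for restraining bone growth, gave 25.6 and 25.4 CPM there, 15.9 and 15.4 CPM in mural-like cells and 9.57 and 8.13 CPM in early nephron-like cells, which overlapped stroma-like cells at 8.85 and 7.21 CPM. Fgfr4 (ENSMUSG00000005320, chr13:55152818-55168759), known as the bile acid-regulating FGF receptor of liver, gave 47.1 and 45.4 CPM. Fgfr4 was followed by distal tubule-, loop of Henle-, ureteric tip-, podocyte- and early nephron-like cells, each overlapping the next, between 17.9 and 29.6 CPM. Progenitor-like cells gave 1.57 and 0.994 CPM of Fgfr3 and 2.0 and 2.93 CPM of Fgfr4. Stroma-like cells, at 0.874 and 0.814 CPM of Fgfr4, lay below the erythroid-like level of 1.53 and 3.21 CPM. With proximal tubule-like cells thinned to 11900 UMIs, 32 of 304 and 15 of 218 had UMIs of both Fgfr3 and Fgfr4, and Fgfr4 was found in 42.1% and 35.7% of the cells with Fgfr3 and in 36.4% and 41.5% of those without.

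**Figure D2:**
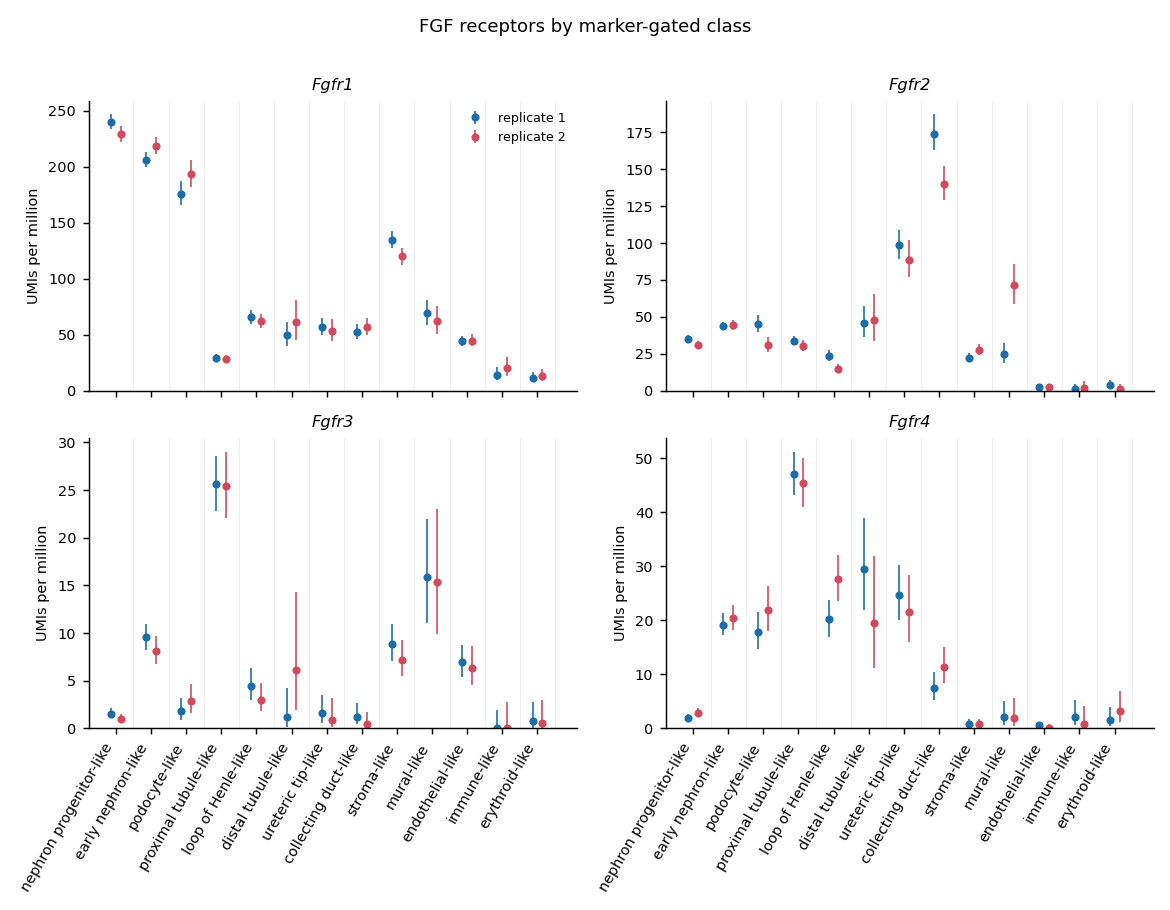
CPM (linear axes from 0) of the 4 receptors in each class, 1 point per library with its 95% exact Poisson interval. Fgfr1 was highest in progenitor-like cells (240 and 229 CPM), Fgfr2 in collecting duct-like cells (174 and 140 CPM), and Fgfr3 and Fgfr4 in proximal tubule-like cells.

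RNA free in the suspension was measured in barcodes with 1 to 100 UMIs. It held every member, from 1.14 and 1.94 CPM of Fgf20 to 97.4 and 84.9 CPM of Fgfr1. Judged by globin, free RNA made up between 0.620% and 4.13% of the UMIs of the classes other than erythroid-like cells. That estimate left out cells with a higher share of globin than free RNA itself, which can only lower it. With the estimated share subtracted, all 55 member differences called between classes kept their direction and their side of the threshold.

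Differences between classes were tested with edgeR's quasi-likelihood test on UMIs summed per class and library, over 15217 genes, with Benjamini-Hochberg adjustment and the library as a block. Differences are on the log2 scale with their standard error (SE), and a call means an adjusted p under 0.05. The classes differ in most of the transcriptome, so each count of members is given beside the percentage of all tested genes called in the same comparison. Every member difference that was called had the same direction in 2 of 2 libraries.

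Progenitor-like cells were compared with stroma-like cells. Of the 10 members 9 were called, 7 higher in progenitor-like cells and 2 lower, where 54.1% of all genes were called, 27.6% higher and 26.5% lower. Fgf1 was higher by 4.23 (SE 0.24, edgeR adjusted p = 1.6e-12), Fgf8 by 5.82 (SE 0.44, edgeR adjusted p = 1.1e-10), Fgf9 by 4.26 (SE 0.50, edgeR adjusted p = 1.4e-07) and Fgf10 by 3.56 (SE 0.40, edgeR adjusted p = 7.4e-08). In stroma-like cells these 4 ligands stood below their level in free RNA, in both libraries. Fgf20 was at least 71.5-fold higher, taking 3 counts over the stroma-like libraries as the floor (edgeR adjusted p = 2.0e-08). Among receptors, Fgfr1 rose by 0.92 (SE 0.08, edgeR adjusted p = 2.5e-09) and Fgfr4 by 1.55 (SE 0.39, edgeR adjusted p = 0.0017). Stroma-like cells held more Fgf7, with a difference of -3.12 (SE 0.43, edgeR adjusted p = 5.1e-06), and more Fgfr3, with -2.59 (SE 0.28, edgeR adjusted p = 7.4e-08). Of the 44 and 45 stroma-like Fgf7 UMIs, 31 and 33 came from the 54 and 37 cells of the adventitial gate described below. Stroma-like cells outside every gate within that class gave 0 and 1.38 CPM of Fgf7. Under the stricter gate Fgf9 was 4.86 and Fgfr3 -3.21, and under the 5% mitochondrial limit Fgf10 was 2.93 and Fgf8 6.42. With free RNA subtracted, Fgf8 was 7.12 and Fgf9 5.16. Fgfr2 was not called, at 0.43 (SE 0.22, edgeR adjusted p = 0.10).

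Early nephron-like cells held less Fgf1, Fgf10 and Fgf20 and more Fgf8, Fgfr3 and Fgfr4 than progenitor-like cells. Of the 10 members 7 were called, 3 higher in early nephron-like cells and 4 lower, where 43.5% of all genes were called, 20.8% higher and 22.7% lower. Fgf1 fell by 5.12 (SE 0.22, edgeR adjusted p = 3.2e-14), and Fgf10 fell by 1.42 (SE 0.29, edgeR adjusted p = 3.8e-04). Fgf20 was 33.1-fold lower (95% interval 19.2 to 62.6, counting error only) and called by edgeR (adjusted p = 1.3e-08), but not by DESeq2 (adjusted p = 0.26). Its fitted difference was -4.35 without replicate 1, -6.01 without replicate 2, -6.71 with classes taken from unsupervised clusters, -6.12 under the 5% mitochondrial limit and -5.82 under the stricter gate. Fgf8 rose by 1.71 (SE 0.17, edgeR adjusted p = 2.9e-08). Fgfr3 and Fgfr4 rose as well, by 2.62 (SE 0.26, edgeR adjusted p = 3.5e-08) and 2.87 (SE 0.17, edgeR adjusted p = 4.1e-12), and under the 5% mitochondrial limit Fgfr3 stood at 1.96. Fgfr1 differed by -0.29 (SE 0.08, edgeR adjusted p = 0.0053), a small difference that did not keep its call: it was -0.14 (edgeR adjusted p = 0.19) when scaled to total UMIs and 0.04 (edgeR adjusted p = 0.84) when cells above 5% mitochondrial UMIs were left out. That limit kept 215 and 107 of the 784 and 858 progenitor-like cells, and the part of mitochondrial content in the result was not tested. Scaling to total UMIs also moved the share of higher genes among all calls from 47.7% to 65.5%. Fgf7, Fgf9 and Fgfr2 were not called.

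Along the nephron, podocyte-like cells held less Fgf8, Fgf9 and Fgf10 than early nephron-like cells. Of the 10 members 4 were called, all lower, where 63.3% of all genes were called, 32.4% higher and 30.9% lower. Fgf8 was 348-fold lower (95% interval 119 to 1690, on 3 UMIs in podocyte-like cells, edgeR adjusted p = 2.5e-13) and Fgf10 was 47.2-fold lower (13.0 to 392, on 2 UMIs, both in replicate 1, edgeR adjusted p = 1.7e-06). Fgf9 fell by 3.10 (SE 0.45, edgeR adjusted p = 2.0e-06) and Fgfr3 by 1.89 (SE 0.31, edgeR adjusted p = 1.8e-05). Without doublet removal the fitted differences of Fgf8 and Fgf10 were -6.55 and -4.56 in place of -8.32 and -5.38, and with free RNA subtracted they were -9.71 and -6.23. Fgfr1, Fgfr2 and Fgfr4 were not called, with differences of -0.16, -0.16 and 0.04.

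Proximal tubule-like cells differed from early nephron-like cells in 8 of 10 members, 4 higher and 4 lower, where 58.1% of all genes were called, 31.1% higher and 27.0% lower. Fgf1 rose by 3.26 (SE 0.28, edgeR adjusted p = 1.4e-09), Fgfr3 by 1.69 (SE 0.21, edgeR adjusted p = 3.5e-07) and Fgfr4 by 1.39 (SE 0.13, edgeR adjusted p = 1.8e-09). Fgfr1 fell by 2.71 (SE 0.09, edgeR adjusted p = 1.1e-16) and Fgf9 by 2.03 (SE 0.33, edgeR adjusted p = 1.5e-05). Fgf8 was 383-fold lower (95% interval 164 to 1182, on 3 and 2 UMIs in proximal tubule-like cells, edgeR adjusted p = 3.4e-14). Its fitted difference of -8.33 was -6.44 without doublet removal, -7.25 under the 5% mitochondrial limit and -9.00 with free RNA subtracted. Fgf10, at 0.75 (SE 0.31, edgeR adjusted p = 0.042), lost its call under 6 of 11 tested alternatives and was 1.21 without replicate 1 and 0.17 without replicate 2. Fgf20 was at least 2.53-fold lower (edgeR adjusted p = 0.029), on 0 UMIs in proximal tubule-like cells and 4 and 9 in early nephron-like cells. It lost its call under 4 alternatives, DESeq2 among them (adjusted p = 0.30). The count of 8 members therefore includes a call near the floor. Scaling to total UMIs moved the share of higher genes among all calls from 53.6% to 42.7%.

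Loop of Henle-like cells differed from early nephron-like cells in 7 members, 2 higher and 5 lower, where 51.2% of all genes were called, 27.8% higher and 23.4% lower. Fgf9 rose by 2.59 (SE 0.24, edgeR adjusted p = 6.7e-09) and Fgf1 by 1.85 (SE 0.38, edgeR adjusted p = 2.9e-04). Fgf8 fell by 4.36 (SE 0.27, edgeR adjusted p = 7.5e-12) and Fgf10 by 3.54 (SE 0.56, edgeR adjusted p = 1.3e-05). Among receptors, 3 fell, Fgfr1 by 1.72, Fgfr2 by 1.17 and Fgfr3 by 1.22, while Fgfr4 was not called. Under the 5% mitochondrial limit Fgf1 (0.80, edgeR adjusted p = 0.48) and Fgfr3 (-0.15, edgeR adjusted p = 0.79) lost their calls. Fgf8 was -2.89 and Fgf9 1.71 under that limit. With classes taken from unsupervised clusters, Fgf8 was -5.40 and Fgfr2 -0.45. At the 20% mitochondrial limit Fgf8 was -5.02 and Fgf10 -4.22, and Fgf10 was -2.86 without doublet removal.

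In the ureteric epithelium, tip-like and collecting duct-like cells together were compared with the progenitor-like cells that surround the tips. Of the 10 members 9 were called, 3 higher and 6 lower, where 57.2% of all genes were called, 27.2% higher and 30.0% lower. Fgf9 rose by 2.16 (SE 0.23, edgeR adjusted p = 3.3e-08), Fgfr2 by 1.73 (SE 0.18, edgeR adjusted p = 2.7e-08) and Fgfr4 by 2.45 (SE 0.20, edgeR adjusted p = 3.7e-10). Fgfr1 fell by 2.23 (SE 0.08, edgeR adjusted p = 8.2e-17), Fgf1 by 3.74 (SE 0.21, edgeR adjusted p = 1.6e-12), Fgf8 by 2.61 (SE 0.27, edgeR adjusted p = 2.1e-08) and Fgf10 by 5.35 (SE 0.47, edgeR adjusted p = 1.3e-09; -4.80 without replicate 1 and -7.59 without replicate 2). Fgf20 was 60.7-fold lower (95% interval 20.6 to 295, on 3 UMIs, edgeR adjusted p = 2.3e-08), although DESeq2 did not call it (adjusted p = 0.062). Fgf7 was at least 2.75-fold lower (edgeR adjusted p = 0.0039), on 0 UMIs in the ureteric classes and 11 and 11 in progenitor-like cells. That progenitor-like level, 0.523 and 0.576 CPM, lay below the 3.41 and 2.49 CPM of free RNA. The count of 9 members therefore includes a call on few UMIs. With classes taken from unsupervised clusters, Fgf8 was -4.16 and Fgf10 -8.43, and Fgf8 was -3.72 under the stricter gate. Without doublet removal Fgf7 was -1.77 (edgeR adjusted p = 0.049). Scaling to total UMIs moved the share of higher genes among all calls from 47.6% to 59.8%.

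Within the ureteric epithelium, 2 of 10 members separated tip-like from collecting duct-like cells, where 31.3% of all genes were called, 13.4% higher and 17.9% lower. Fgfr4 was higher in tip-like cells by 1.30 (SE 0.23, edgeR adjusted p = 1.4e-04). Fgfr2 was lower in tip-like cells, by -0.79 (SE 0.21, edgeR adjusted p = 0.0062), but not called by DESeq2 (adjusted p = 0.091). Fgf9 (-0.02) and Fgfr1 (-0.03) were not called. With classes taken from unsupervised clusters, 4 members were called.

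Against the mean of the 8 epithelial and progenitor classes, stroma-like cells differed in 7 of 10 members, 3 higher and 4 lower, where 61.7% of all genes were called, 32.2% higher and 29.5% lower. Fgf7 was 18.3-fold higher in pooled CPM (95% interval 12.4 to 27.5, edgeR adjusted p = 1.2e-09). Most of its stroma-like UMIs, 31 of 44 and 33 of 45, came from the small adventitial gate described below. Fgfr3 was higher by 1.45 (SE 0.21, edgeR adjusted p = 3.8e-06) on the mean of class log levels, and 1.12-fold in pooled CPM (95% interval 0.930 to 1.33). Fgf8 fell by 3.06 (SE 0.70, edgeR adjusted p = 5.9e-04), Fgf9 by 4.84 (SE 0.44, edgeR adjusted p = 1.9e-09), Fgfr2 by 0.83 (SE 0.18, edgeR adjusted p = 4.0e-04) and Fgfr4 by 4.21 (SE 0.25, edgeR adjusted p = 1.2e-12). Fgfr1 was called higher in stroma-like cells by 0.65 (SE 0.06, edgeR adjusted p = 6.8e-09) where each class counts equally, yet pooled over all cells its ratio was 0.823 (95% interval 0.787 to 0.859), the opposite direction. Fgf20 was at 0 UMIs in stroma-like cells and 503 in the epithelial classes, at least 21.5-fold lower in pooled CPM, and was not called by the fit. Fgfr1 and Fgfr3 lost their calls under the 5% mitochondrial limit, where the ureteric tip-, collecting duct- and distal tubule-like classes had too few cells and the mean was over the other 5 classes, so both the cells and the reference differed. Fgf9 was -3.03 and Fgf8 -3.87 there, Fgf8 was -2.27 at the 20% limit and -3.68 without doublet removal, and with free RNA subtracted Fgf9 was -5.71 and Fgf8 -4.10. Fgf7 was 4.37 without doublet removal against a fitted 5.32.

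Mural-like cells were compared with stroma-like cells, and 2 of 10 members were called, where 21.1% of all genes were called, 10.1% lower. Fgfr1 was lower in mural-like cells by -1.0 (SE 0.11, edgeR adjusted p = 3.9e-07). Fgfr3 was higher by 0.90 (SE 0.29, edgeR adjusted p = 0.030) and lost this call without doublet removal, under the 5% mitochondrial limit and under a stricter gate. Fgf7 (1.04, edgeR adjusted p = 0.080) and Fgfr2 (0.77, edgeR adjusted p = 0.070) were not called. With classes taken from unsupervised clusters, 6164 of 15430 genes were called in place of 3211 of 15217, so the background of these 2 calls depends on how the classes are drawn. The loop of Henle, mural and adventitial comparisons were chosen after the levels had been seen.

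**Figure D3:**
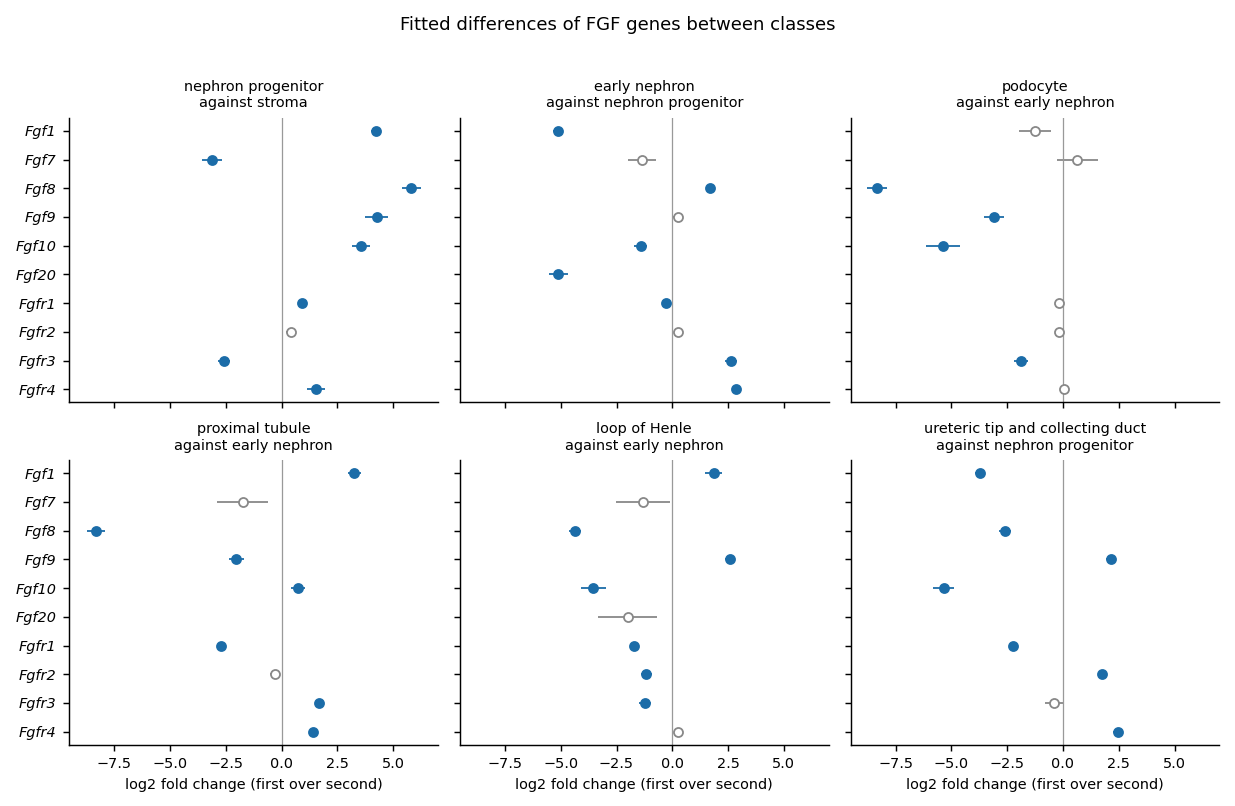
Differences of each member (log2, points, with bars of 1 SE) in 6 comparisons between classes, on a log2 axis; filled points had an edgeR adjusted p under 0.05, open grey points did not, and values with a class at 0 UMIs are left out. Fgfr1 was higher in progenitor-like than in stroma-like cells (0.92) and lower in proximal tubule-like than in early nephron-like cells (-2.71), while Fgfr4 was higher in the latter comparison (1.39).

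Stroma-like cells were divided by a second set of markers into nephrogenic-zone (177 and 193 cells), medullary (81 and 93), interstitial (87 and 77), mesangial (169 and 123) and adventitial (54 and 37) gates. The first, second and last of these were each compared with the mean of the other gates, over 10101 genes. Of the members, 8 had enough counts for a test, and Fgf9 and Fgfr4 did not. Fgf1, Fgf7 and Fgf10 were higher in the adventitial gate, and Fgfr2 was higher in the medullary and lower in the nephrogenic-zone gate.

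In the adventitial gate, 4 of 8 tested members were called, all higher, where 30.1% of all genes were called, 17.1% higher and 13.0% lower. Fgf7 stood at 62.5 and 87.6 CPM there, from 31 and 33 UMIs in 22 and 19 cells, and between 0 and 5.93 CPM in the other gates. The pooled ratio was 35.6 (95% interval 21.2 to 62.0) and the fitted difference 5.52 (SE 0.46, edgeR adjusted p = 1.6e-10). Fgf10 stood at 14.1 and 18.6 CPM, from 7 UMIs in each library, with a pooled ratio of 11.1 (4.91 to 25.1, edgeR adjusted p = 1.0e-05) and a fitted difference of 5.01, which was 7.48 without replicate 1 and 4.31 without replicate 2. Fgf1, at 4.03 and 21.2 CPM from 2 and 8 UMIs, the first below the floor of 6.04 CPM, had a pooled ratio of 7.41 (2.98 to 17.6, edgeR adjusted p = 0.0014), and its fitted difference of 4.15 was 6.13 without replicate 1 and 2.40 without replicate 2. It was 2.91 in cells with at least 5000 UMIs and 3.47 by DESeq2, and its call was lost under the 5% mitochondrial limit (edgeR adjusted p = 0.052), where Fgf7 stood at 7.21. The fitted Fgf10 difference was 4.13 at the 20% limit. Fgfr1 stood at 254 and 226 CPM against 95.4 to 133 CPM in the other gates, a difference of 1.15 (SE 0.12, edgeR adjusted p = 3.5e-09). Markers of some other cell types were also higher in this gate. Summed CPM of the 7 endothelial markers was 218 and 220, with none at 0, against 42.4 to 126 in the other gates. Summed CPM of the 6 progenitor markers was 34.3 and 114, with 3 and 2 of them at 0, against 5.19 to 52.1. The collecting duct, distal tubule, proximal tubule, immune and neural lists also stood higher in both adventitial libraries than in any other gate. The mural list stood lower, at 343 and 255 CPM against 405 to 2915, and the early nephron list, at 218 and 130 CPM, and the podocyte list, at 76.6 and 61.0 CPM, lay within the range of the other gates. Progenitor-like and endothelial-like cells were the classes with most Fgf1, and the part of these markers in the Fgf1, Fgf7, Fgf10 and Fgfr1 levels was not tested.

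In the medullary gate, Fgfr2 stood at 101 and 119 CPM, above 23.7 and 45.2 CPM in the interstitial gate and 18.1 CPM or less in the other gates. The difference was 2.72 (SE 0.20, edgeR adjusted p = 1.6e-11), with a pooled ratio of 7.37 (95% interval 5.87 to 9.27). It was 1 of 2 members called of 8, where 12.0% of all genes were called, 6.53% higher and 5.47% lower. The other, Fgfr1 at -0.34 (SE 0.11, edgeR adjusted p = 0.046), lost its call under 8 alternatives. Summed CPM of the 6 early nephron markers was 531 and 775 in this gate and 201 and 153 in the nephrogenic-zone gate. The ureteric tip list stood at 64.3 and 82.1 CPM, against 23.7 to 53.1 in the other gates. The collecting duct list, at 24.0 and 26.6 CPM, lay within the range of the other gates. The part of these markers in the Fgfr2 level was not tested. In the nephrogenic-zone gate, Fgfr2 (7.59 and 11.9 CPM) and Fgfr3 (1.01 and 2.59 CPM) were the 2 members called, both lower, where 33.6% of all genes were called, 17.7% higher and 15.9% lower. Their differences were -1.66 (SE 0.28, edgeR adjusted p = 2.7e-05) and -2.52 (SE 0.62, edgeR adjusted p = 0.0022; -3.16 without replicate 2), and both calls were lost under the 5% mitochondrial limit, where they were -1.07 and -2.08 (edgeR adjusted p = 0.16 and 0.17). Summed CPM of the mural markers was 626 and 405 in this gate. It was 1081 to 2915 in the medullary, interstitial and mesangial gates, but 343 and 255 in the adventitial gate. The part of these markers in the Fgfr3 level was not tested.

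**Figure D4:**
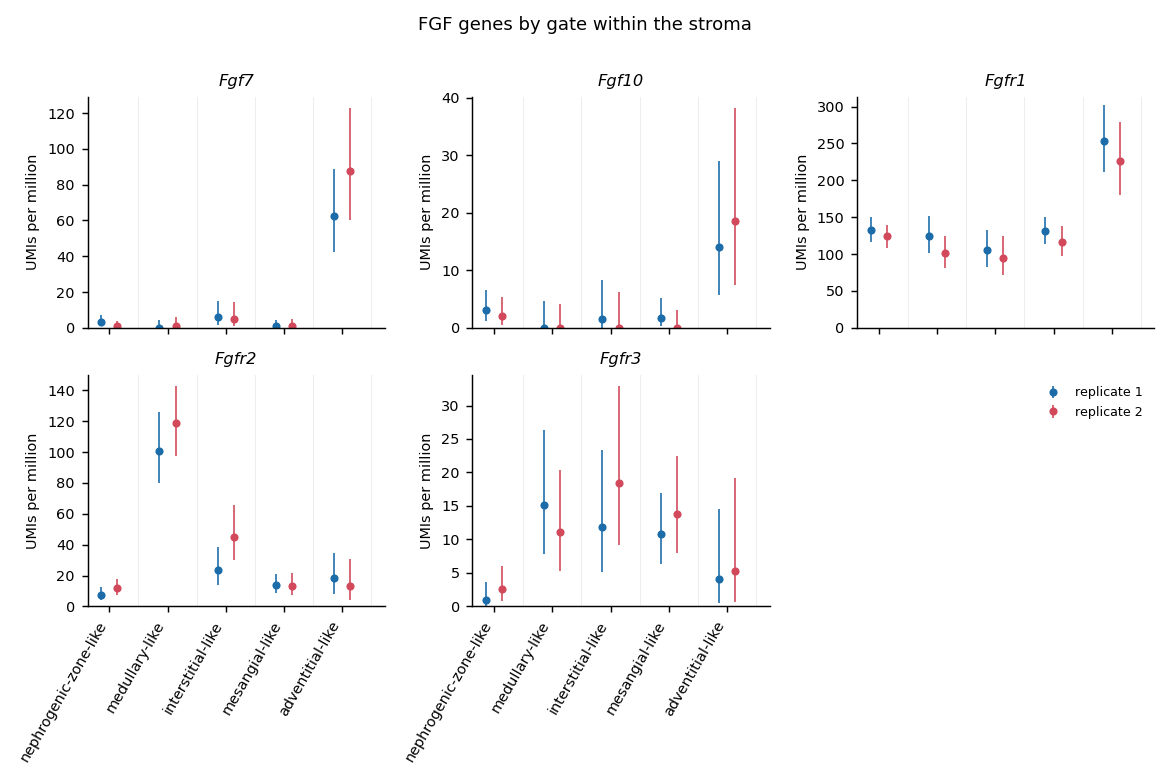
CPM (linear axes from 0) of Fgf7, Fgf10, Fgfr1, Fgfr2 and Fgfr3 in the 5 gates within stroma-like cells, 1 point per library with its 95% exact Poisson interval. Fgf7 reached 62.5 and 87.6 CPM in the adventitial gate, and Fgfr2 101 and 119 CPM in the medullary gate.

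Progenitor-like cells were split by a UMI of Cited1, a marker of the least committed progenitors, into 733 and 800 cells with and 51 and 58 without. Cited1 is also among the 6 markers of the progenitor gate, so a cell without it had to pass on the other markers. The split therefore does not sample all progenitors that lack Cited1. Of 8 tested members 3 were called, all higher with Cited1, where 4.51% of all genes were called, 2.17% higher and 2.35% lower. Fgf8 stood at 29.4 and 24.1 CPM with Cited1 and at 1.23 and 1.13 CPM without, on 1 UMI in each library, a ratio of 22.8 (95% interval 6.29 to 188, edgeR adjusted p = 5.4e-06). Fgf1 fell from 44.0 and 44.3 CPM to 8.60 and 7.94, a difference of 2.35 (SE 0.35, edgeR adjusted p = 4.9e-05). Fgfr1 differed by 0.79 (SE 0.11, edgeR adjusted p = 1.1e-05). Fgf10 and Fgf20 were not called, and Fgf9 was too low to test. Fgf20 stood at 13.1 and 10.9 CPM with Cited1 and 8.60 and 17.0 without, the latter on 7 and 15 UMIs (-0.18, SE 0.38, edgeR adjusted p = 0.89). At 11900 UMIs a cell it was found in 12.2% and 11.5% of cells with Cited1 and 19.4% and 15% of the 31 and 40 such cells without. Fgf10 was found, at the same depth, in 19.0% and 19.4% of cells with Cited1 and 19.4% and 22.5% of cells without (0.08 in level, edgeR adjusted p = 0.94). Cells without Cited1 were shallower, at 15962 and 15196 UMIs per cell against 27578 and 22787, and summed CPM of the early nephron markers was 590 and 591 in them against 225 and 184. The part of depth and of those markers in these values was not tested, and the share of higher genes among all calls moved from 48.0% to 31.4% under DESeq2 and to 58.9% when scaled to total UMIs. At the 20% mitochondrial limit the fitted Fgf8 difference was 3.61 in place of 4.39.

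The other genes of the pathway were taken as 4 lists of 61 genes: further ligands (16), co-receptors, decoys and adaptors (15), feedback and target genes (12), and genes of heparan sulfate (18). All 61 were found, and the lists were described by their counts. Etv4, a transcription factor induced by FGF and by the GDNF receptor Ret, stood at 180 ± 25.2 CPM (SD, n = 2) in tip-like cells and 12.9 ± 6.16 CPM in collecting duct-like cells. Its relative Etv5 stood at 167 ± 2.40 and 11.5 ± 4.47 CPM, and the MAP kinase phosphatase Dusp6 at 129 ± 12.0 and 28.3 ± 5.34 CPM. All 11 tested genes of the list were higher in tip-like cells, where 13.4% of all genes were, with a median difference of 1.78 against -0.06 over all genes, and Spry3 was too low to test. Etv5 differed by 3.84 (SE 0.18, edgeR adjusted p = 5.4e-13) and Spry4, a feedback inhibitor, by 4.10 (SE 0.31, edgeR adjusted p = 1.7e-09). Of the 4 receptors, Fgfr4 was higher and Fgfr2 lower in the same comparison, as given above.

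Elsewhere the feedback and target genes went both ways. Each count stands beside the percentage of all genes called in that comparison. Against early nephron-like cells, podocyte-like cells had 1 of 11 higher and 9 lower (all genes 63.3%, median of the list -1.32), led by Etv4 at -5.37 (SE 0.29, edgeR adjusted p = 1.7e-13). Proximal tubule-like cells had 1 higher and 7 lower (58.1%, median -0.74), whereas loop of Henle-like cells had 7 higher and 1 lower (51.2%, median 0.70), led by Spry4 at 2.22 (SE 0.19, edgeR adjusted p = 2.2e-09). Progenitor-like cells against stroma-like cells had 5 higher and 5 lower (54.1%): Il17rd, an inhibitor of FGF receptors, differed by 3.45 (SE 0.19, edgeR adjusted p = 4.1e-13) and Spry2 by -1.94 (SE 0.13, edgeR adjusted p = 1.8e-11). Within stroma-like cells, the nephrogenic-zone gate had 6 of 10 higher and 1 lower (33.6%), the adventitial gate 1 higher and 5 lower (30.1%), and the medullary gate none called in either direction (12.0%). Progenitor-like cells with Cited1 had 5 of 10 higher and 1 lower than those without (4.51%). Spry4 was among the higher genes (0 and 2 UMIs without Cited1, edgeR adjusted p = 0.0024) and Spry1 differed by -1.02 (SE 0.17, edgeR adjusted p = 1.4e-04).

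**Figure D5:**
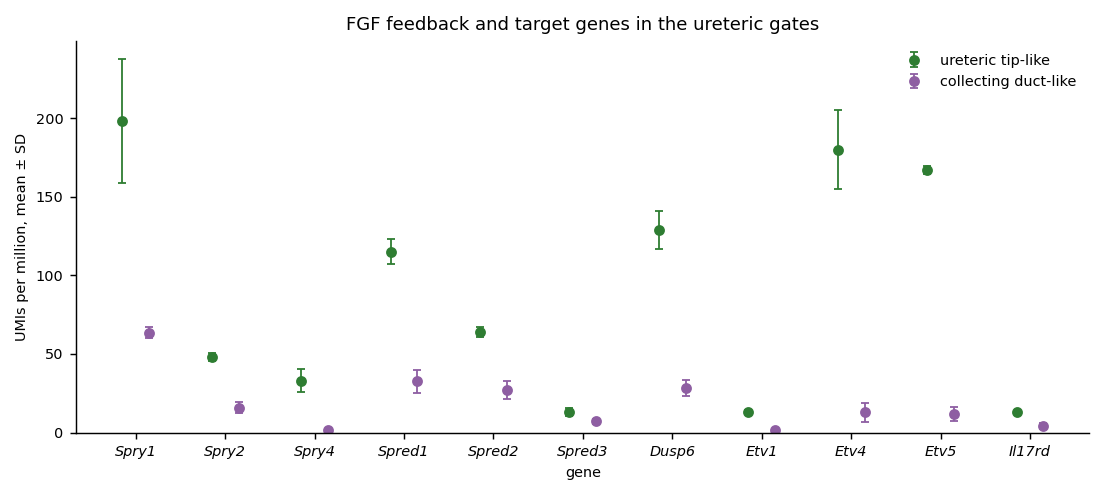
Mean CPM (linear axis from 0, bars of 1 SD, n = 2 libraries) of 11 feedback and target genes in ureteric tip-like and collecting duct-like cells. Etv4 and Etv5 stood at 180 and 167 CPM in tip-like cells and at 12.9 and 11.5 CPM in collecting duct-like cells.

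Few of the further ligands were measured: 5 of 16 passed the filter on low counts. In stroma-like cells 4 of them were higher than the epithelial mean and none lower, where 61.7% of all genes were called, led by Fgf2, a ligand of broad receptor use, at 5.54 (SE 0.24, edgeR adjusted p = 2.5e-15). Fgf12, an intracellular member of the family that modulates sodium channels, was higher in ureteric than in progenitor-like cells by 6.31 (SE 0.38, edgeR adjusted p = 4.4e-12). In the adventitial gate, where only 2 of the 16 further ligands could be tested, Fgf2 was higher by 0.97 (SE 0.30, edgeR adjusted p = 0.013). Fgf18, a ligand known from cartilage and lung, had 27 and 11 UMIs there, 5 and 4 in the interstitial gate and 0 in the other gates. Its call (edgeR adjusted p = 8.2e-08) rests on those counts alone and adds no separate support, and its fitted difference is no measure of size.

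Kl, the co-receptor through which Fgf23 acts on renal tubules, stood at 44.6 ± 18.4 CPM (SD, n = 2) in proximal tubule-like cells and rose there over early nephron-like cells by 4.78 (SE 0.26, edgeR adjusted p = 3.8e-13), in a list with 3 of 14 higher and 6 lower (all genes 58.1%). Fgfbp1, a carrier that releases FGFs from matrix, rose in podocyte-like cells by 4.20 (SE 0.32, edgeR adjusted p = 2.8e-10), in a list with 9 higher and 3 lower (63.3%). Flrt1, a receptor-binding membrane protein, fell from progenitor-like to early nephron-like cells by 5.22 (SE 0.34, edgeR adjusted p = 1.4e-11), where 2 were higher and 7 lower (43.5%). Of the 18 heparan sulfate genes, loop of Henle-like cells had 7 higher and 6 lower than early nephron-like cells (51.2%). Sulf1, which removes sulfate groups from heparan sulfate chains, fell there by 6.50 (SE 0.40, edgeR adjusted p = 6.1e-12). In the adventitial gate Sulf1 rose by 6.39 (SE 0.33, edgeR adjusted p = 1.5e-15), where 6 of 16 heparan sulfate genes were higher and 2 lower (30.1%).

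The genes whose mean log level over the 13 fitted classes was most like each member were named by Pearson's r, as a description over points that share both libraries. For Fgf20 these were Six2 (0.94), itself a marker of the progenitor gate, and Spock2 (0.88), and for Fgf9 Wfdc2 and Hap1 (both 0.95). Fgf7 was most like Pdlim3 and Lama2 (both 0.95), Fgf10 like Gm14964 (0.96) and Snap91 (0.87), Fgf1 like Dock9 (0.83) and Ptprm (0.78), and Fgf8 like Uncx (0.83) and Col2a1 (0.77). Among receptors, Fgfr1 was most like Hdgfrp3 (0.90), Fgfr2 like Grip1 (0.94), Fgfr3 like Bmp4 and Itga1 (both 0.85) and Fgfr4 like Myo5b (0.94).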

How the data were processed

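The deposited files hold UMI counts per gene and barcode for every barcode, unnormalised. Per the submitters' processing notes the authors used Cell Ranger 6.0.1 and mm10, while the file headers name Cell Ranger version 4; the annotation is not given in the sources used here. Coordinates come from the RefSeq table of GRCm38.p6.

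Cells were kept at 2000 or more UMIs and at most 10% mitochondrial UMIs, and the barcodes with the highest Scrublet scores (a share growing with the number of cells, 310 and 212) were removed. Each cell took the class with the highest mean marker z-score, given a score of at least 0.3, a lead of 0.25 and 2 detected markers; these limits were set after cell numbers per gate had been seen. The members, marker lists, pathway lists and comparisons were chosen with earlier results of these data known. UMIs were summed per library and class (20 or more cells) and fitted with edgeR 4.0.16 (R 4.3.3, TMM, filterByExpr, quasi-likelihood, 12 residual df; 6 within stroma and progenitors), with the library as a block because all classes come from the same libraries. Library deviations of 78 class pairs correlated at a median of 0.28 (0.04 to 0.56), and at 0.13 without sex-linked genes. On simulated counts for early nephron against progenitor cells (15078 genes), 89 of 100 genes changed by log2 1 and 96 of 100 changed by log2 2 were recovered, with 5 false calls of 14878. So few changed genes make that setting unlike these data, where 43.5% of genes were called, and its error rate may not carry over. Intervals on counts are exact Poisson or exact conditional (95%) and cover counting error only; shares were thinned to 4600 or 11900 UMIs. Pathway genes were named by the highest and lowest called differences per list, and like genes by Pearson's r. Python 3.11.15, scanpy 1.11.5 and DESeq2 1.42.0 were also used. Numbering of the replicates follows the order of the samples and only names them.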

Additional observations from a re-analysis of the deposited data

How the results depend on the processing

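Over the 66 called differences of members, 651 of 684 values from 11 tested alternatives kept their direction and their call, 32 lost the call and 1 turned direction: Fgfr1 in early nephron-like against progenitor-like cells, at 0.04 under the 5% mitochondrial limit. That limit ended 10 further calls of the 51 it could test, and DESeq2 ended 6; the cause was not tested. It left too few ureteric tip-, collecting duct- and distal tubule-like cells, so both ureteric comparisons were not run there, and the stroma comparison was run against the mean of the epithelial classes that remained, as it was under the stricter gate and with unsupervised clusters. The Cited1 comparison was not run at 5% or under the stricter gate. All 132 values from a single library kept their sign, but the 66 differences were called on these same libraries, so this is no independent check. Moves from the full fit were set against the SD of the 2 one-library values. By that measure 19 of 66 moved more without replicate 1 and 11 without replicate 2. The one-library values have no test because no residual degrees of freedom remain.

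Counts of called members moved by more than 1.5 times in 5 comparisons. Tip against collecting duct gave 1 under DESeq2 and 4 with unsupervised clusters. Mural against stroma gave 1 without doublet removal, 1 under the stricter gate and 4 at a 20% mitochondrial limit. The nephrogenic-zone gate gave 0 at 5% mitochondrial UMIs and 1 under the stricter gate. The medullary gate gave 1 under DESeq2, with no filter on low counts, with total UMIs, at 5% mitochondrial UMIs, at 5000 or more UMIs a cell and under the stricter gate. The adventitial gate gave 2 at 5% mitochondrial UMIs. Without the replicate block, the medullary gate gave 1 and proximal tubule against early nephron 7 in place of 8, a smaller shift, and no other count differed.

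Counts over all genes moved by more than 1.5 times in 6 comparisons besides mural against stroma, which gave 6164 with unsupervised clusters in place of 3211. Under the 5% mitochondrial limit, early nephron against progenitor gave 3859 in place of 6615, proximal tubule against early nephron 4587 in place of 8841 and loop of Henle against early nephron 3773 in place of 7788. That limit gave 1242 in place of 3390 for the nephrogenic-zone gate, 510 in place of 1213 for the medullary gate and 1821 in place of 3043 for the adventitial gate, and the stricter gate gave 2031 and 745 for the first pair of these.

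Without replicate 1 or replicate 2 in turn, Fgf20 in early nephron-like against progenitor-like cells ran from -4.35 to -6.01, Fgf10 in podocyte-like cells from -8.63 to -4.65, Fgf10 in ureteric cells from -4.80 to -7.59, Fgf10 in the adventitial gate from 7.48 to 4.31, Fgf20 in proximal tubule-like cells from -4.82 to -3.69, Fgf20 in ureteric cells from -6.50 to -7.69 and Fgfr3 in the nephrogenic-zone gate from -2.05 to -3.16. Fgf7 in stroma-like cells was 6.05 without replicate 1. Depth limits Fgf7 and Fgf20 most, with 182 and 556 UMIs in all. Scaling to total UMIs moved the median difference of all genes from -0.05 to 0.09 in early nephron against progenitor, from 0.01 to -0.14 in proximal tubule against early nephron, from -0.06 to 0.07 in ureteric against progenitor-like cells and from -0.01 to -0.11 in the adventitial gate.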
